A study of Trachinotus ovatus with 6 samples.

Results

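The genes described here are those of the golden pompano, Trachinotus ovatus, a teleost of warm seas, whose span in the deposited table is 100 kb or more. The span runs from the first to the last base of the listed locus, introns included, and a gene lying wholly within a longer gene was left out. Of the 22062 genes in the table, 707 reach that span and 607 remain, 2.75% of all genes. The choice used positions only and no expression value. Identifiers in the table come without gene names or proteins, so genes are given by linkage group and position, and what they encode is not reported. Sequences are not shown, since no genome was used.

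In vertebrates most of the span of a very long gene is intron. RNA polymerase has to copy the whole span for each transcript, and in mammals very long genes are known for taking long to transcribe and for their use in nerve and muscle cells. In many vertebrates the testis transcribes an unusually broad set of genes, many at low levels, while the ovary of a fish holds oocytes that store maternal RNA and are dominated by fewer abundant transcripts. These points are background and were not measured here.

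The study took the testes of 3 males and the ovaries of 3 females, each library from a different fish by the study's design. Ovaries carry the code TOQC and testes the code TOQX in the labels' genotype field, and the field for treatment names only the removal of the tissue. The sources used here do not give age, strain or reproductive stage. Values are FPKM, fragments scaled by the length of the gene model and by the library's fragments, which allows levels of different genes to be compared per length. FPKM summed to 658899 to 796856 in the ovaries and to 485022 to 490967 in the testes, and absolute depth is unknown. Without gene names the labelled gonads were not checked against marker genes.

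The long genes lay on all 24 linkage groups, with 1 outside them, and together covered 22.3% of the linkage groups' length. Their median span was 148958 bp, against 9505 bp for all genes. Most were near the limit: 427 spanned under 200 kb, 119 spanned 200 to 400 kb, 30 spanned 400 kb to 1 Mb and 31 spanned 1 Mb or more. Another gene's span overlapped that of 352 (58%), against 39.1% of all other genes, and 283 held at least 1 gene wholly inside. The remaining 255 overlapped no gene. Overlap was frequent in the longest class, where the median number of genes overlapped was 50. The counting of reads where genes overlap, and whether strand was used, is not stated in the sources used here, so values of overlapping genes are uncertain. The genes nearest to the limit on the inside spanned 100336 bp (linkage group 13) and 100514 bp (linkage group 12), with log2 fold changes (testis minus ovary) of 2.31 and 3.67. Those nearest on the outside spanned 99929 bp (linkage group 9) and 99998 bp (linkage group 23), with 2.49 and 1.07.

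Long genes were detected in larger numbers in testis than in ovary. At 1 FPKM or more there were 567, 555 and 565 of the 607 in testes 1, 2 and 3, and 219, 267 and 245 in ovaries 1, 2 and 3. No ovary came near a testis in this count. As a share, 92.6% ± 1.06 of long genes reached 1 FPKM in testis and 40.1% ± 3.96 in ovary (SD, n = 3 each). Among all other genes the shares were 79.6% ± 1.44 and 45.9% ± 4.34 (SD, n = 3 each). At 1 FPKM long genes were thus detected more often than other genes in each testis and less often in each ovary. With median ratio scaling over genes above 0 the mean shares were 77.4% in testis and 52.0% in ovary, against 69.1% and 53.7% of other genes. At a limit of 0.5 FPKM they were 97.2% and 51.0%, against 86.4% and 53.0%. At 5 FPKM the order in testis turned, with 50% of long genes against 53.0% of others, and the ovary shares were 14.3% and 27.5%. Their typical level was low in both gonads, with a median FPKM of 5 ± 0.285 over the testes and 0.559 ± 0.149 over the ovaries (SD, n = 3 each). Both lie below the medians of other genes, 5.67 ± 0.483 and 0.722 ± 0.251 FPKM. Low levels were not particular to spans of 100 kb or more. For other genes of 50 to 100 kb the median testis mean was 4.98 FPKM and the median ovary mean 0.504 FPKM, against 5.02 and 0.55 FPKM for long genes. Fewer cells that express a gene and less of its RNA per cell cannot be told apart in such bulk samples.

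**Figure D1:**
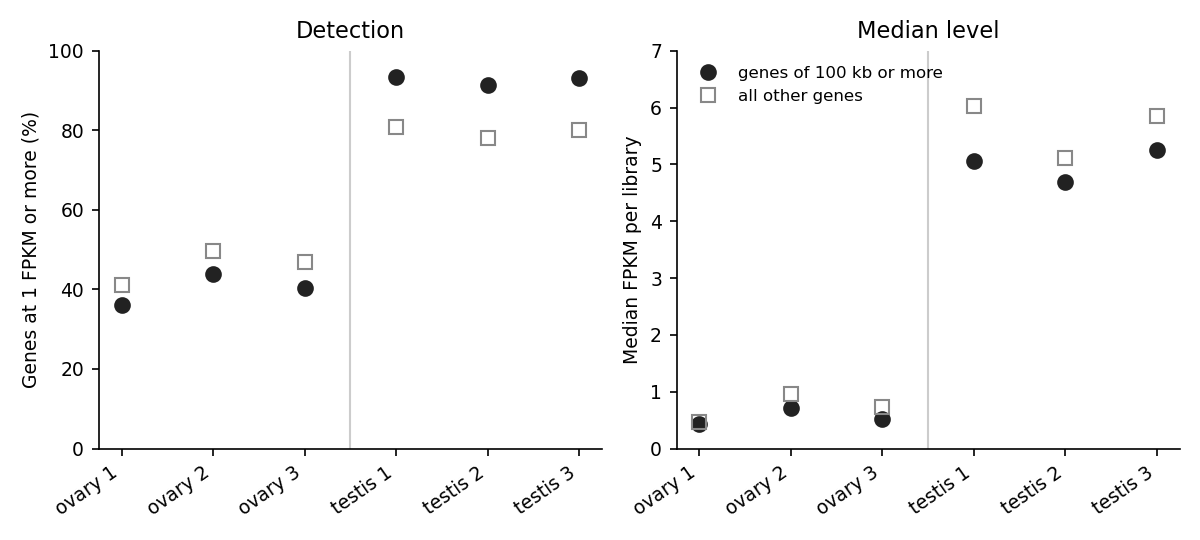
Share of genes at 1 FPKM or more (left, percent) and median FPKM (right) in each of the 6 libraries, for the 607 genes of 100 kb or more (filled circles) and all other genes (open squares). Long genes stand above other genes in the share detected in the 3 testes (91.4% to 93.4%) and below them in the 3 ovaries (36.1% to 44%), while their median level is lower in every library.

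Values of 0 were rare among long genes. In ovaries 20 ± 5.2 of them (3.29%) were listed at 0, against 12.7% of other genes, and in testes 1.33 ± 1.53 (0.22%) against 2.1% (SD, n = 3 each). Whether gene length or overlap with other genes bears on these shares was not tested. No long gene was at 0 in all 6 libraries, and 25 (4.12%) reached 1 FPKM in none, against 16.2% of other genes. By pattern, 197 long genes (32.5%) reached 1 FPKM in all 6 libraries, against 39.2% of other genes. A larger group of 273 (45%) did so in all 3 testes and in no ovary, against 27.6% of other genes. The opposite pattern was shown by 2 long genes (0.329%), against 0.55% of other genes. The 2 are named below with the genes higher in ovary.

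In the test across all genes, most long genes were higher in testis. A gene was tested if 3 or more libraries had it at 1 FPKM, which 550 of the 607 long genes (90.6%) and 78% of all genes met, and called at a limma adjusted p under 0.05 on log2(FPKM + 1). With no ovary at 1 FPKM, 273 of the 607 long genes (45%) met this through the testes alone, against 28.1% of all genes. Through the ovaries alone 2 long genes (0.329%) met it, against 0.544% of all genes. The shares called in each direction thus partly follow from the filter. Among the 550, testis was the higher gonad for 454 (82.5%) and ovary for 25 (4.55%), against 68.2% and 13.4% of all 17206 tested genes. In either direction 479 (87.1%) passed, against 81.6%, and 71 did not. Differences of at least 1 on the log2 scale were found for 402 genes higher in testis (73.1%, against 62.1% of all tested genes) and 16 higher in ovary (2.91%, against 9.68%). The median log2 fold was 1.67 for long genes and 1.43 for all tested genes, with interquartile ranges of 0.91 to 2.38 and 0.27 to 2.33. Without overlap between the gonads, all 3 testes stood above all 3 ovaries for 455 long genes (82.7%, against 69.8%) and all ovaries above all testes for 27 (4.91%, against 14.1%). The 57 untested genes had a median mean of 0.832 FPKM in testis and 0.0204 FPKM in ovary, none above 2.71 FPKM in any library.

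**Figure D2:**
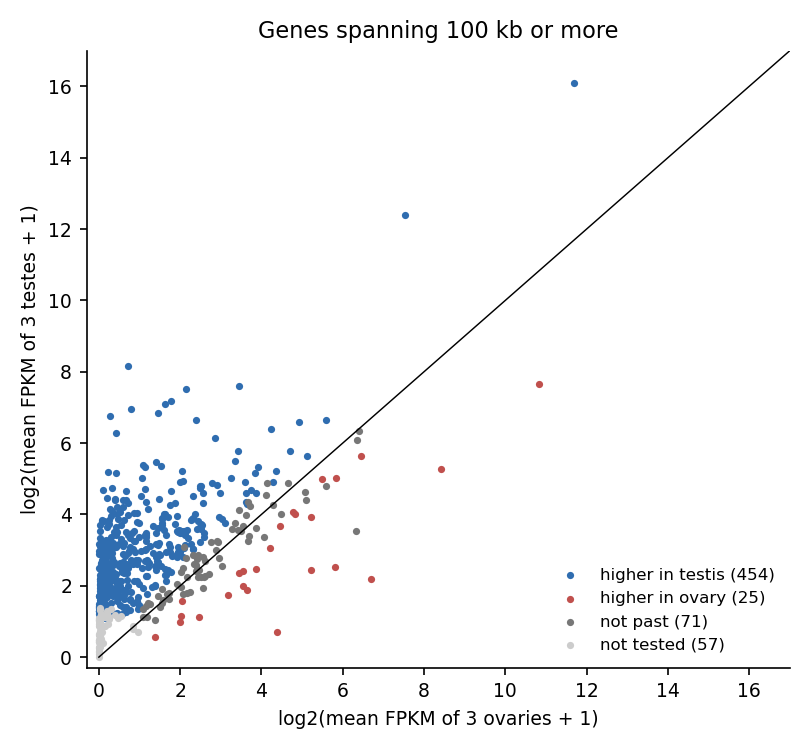
Mean level of each of the 607 long genes in the 3 ovaries (x, log2 of mean FPKM + 1) and the 3 testes (y, same scale), coloured by the limma call at an adjusted p under 0.05. Most points lie above the diagonal at low ovary levels: testis was higher for 454 genes and ovary for 25, 71 did not pass and 57 were not tested.

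The split between directions depends on how the 6 libraries are put on one scale, and the excess over all genes depends on it less, except after quantile normalization. Rescaling to TPM gave 483 long genes higher in testis (87.8%, against 74.9% of all tested genes) and 14 higher in ovary (2.55%, against 8.19%). Median ratio scaling over genes above 0 in all libraries gave 288 and 150 (52.4% and 27.3%, against 43.2% and 40.8%). Taken only over genes at 1 FPKM in all libraries, median ratios gave 424 and 46 (77.1% and 8.36%, against 64.8% and 19.5%). Centring on the median fold of all tested genes gave 231 and 137 (42% and 24.9%, against 34.0% and 34.4%). Quantile normalization gave 225 and 162 (40.9% and 29.5%, against 39.9% and 34.4%), where the share higher in testis is near that of all genes. The median of long genes exceeded that of all tested genes by 0.24 with FPKM as deposited, 0.29 with TPM, 0.47 and 0.23 with the 2 kinds of median ratios and 0.03 after quantile normalization. Those medians of all tested genes were 1.43, 2.09, 0.08, 1.16 and 0.13.

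At matched mean level, long genes had folds like those of other genes when low and more testis-leaning folds when abundant. Genes were binned by the mean of log2(FPKM + 1) over the 6 libraries. Between 0 and 1 the median log2 fold was 1.36 in 67 long genes and 1.41 in other genes, and between 1 and 2 it was 1.98 in 239 long genes and 2.08 in others. Between 2 and 3 it was 1.61 in 141 long genes and 1.89 in others, a lower value for the long ones. The order turned above that: 1.2 in 56 long genes and 0.89 in others between 3 and 4, and 0.87 in 31 long genes and 0.1 in others between 4 and 5. Of these 31, 18 were called for testis (58.1%, against 33.9% of other genes in the bin) and 6 for ovary (19.4%, against 32.7%). In the lower bins, which hold most long genes, the shares called for testis were close. They were 98.5% against 98.1% between 0 and 1, 90.4% against 89.2% between 1 and 2, and 77.3% against 75.1% between 2 and 3. For ovary they were 1.49% against 0.726%, 1.67% against 3.23%, and 4.26% against 6.89%. The filter limits the lowest bin, since a tested gene with a mean under 1 cannot be at 1 FPKM in all 6 libraries. Likeness of folds and shares in that bin is thus partly set by the filter. After quantile normalization, with bins on that scale, long genes exceeded others by 0.31 between 3 and 4, 0.75 between 4 and 5 and -0.04 between 2 and 3. Averaged over the 5 bins with at least 20 long genes and weighted by their number, the difference was -0.04 with FPKM as deposited. After quantile normalization this average was 0.05. With FPKM as deposited it was 0.32 when genes were matched on the testis level alone, and -0.15 on the ovary level alone. The difference thus has no fixed sign.

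**Figure D3:**
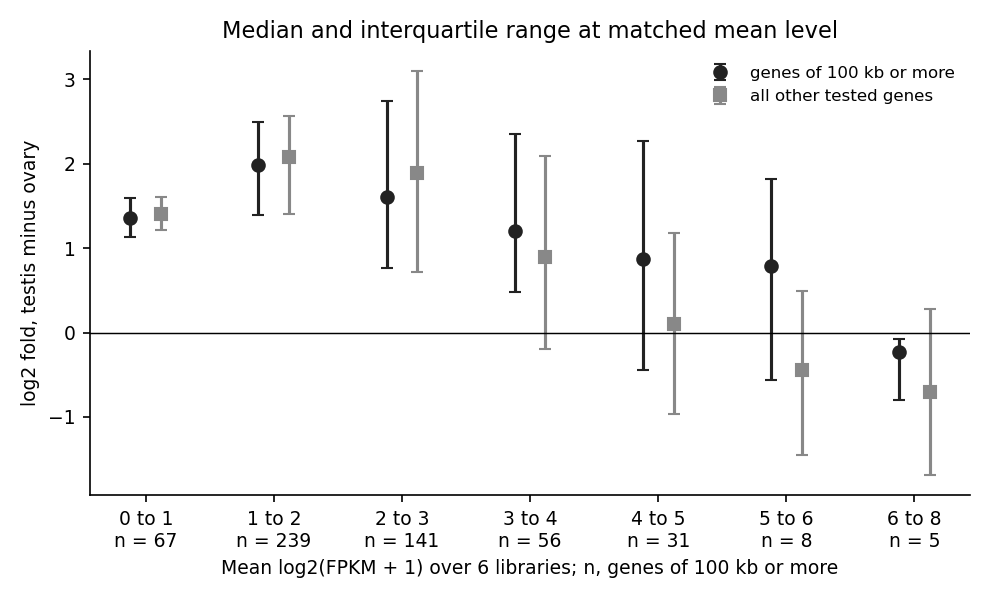
Median log2 fold (testis minus ovary, log2(FPKM + 1) scale) with the interquartile range for long genes (circles) and all other tested genes (squares), in bins of mean log2(FPKM + 1) over the 6 libraries; n counts the long genes. The medians lie close together up to a level of 2, and above 3 the long genes lie higher (1.2 against 0.89, then 0.87 against 0.1), with 8 and 5 long genes in the last bins.

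Matching on the testis level alone showed where ovary levels parted. Among genes with a testis mean of 5 to 10 FPKM, 61 of 142 long genes (43%) had an ovary mean of 1 FPKM or more, against 58.9% of other genes, and the median ovary level was 0.719 FPKM against 1.74 FPKM. At a testis mean of 50 FPKM or more the median ovary level was 9.75 FPKM in 21 long genes and 37.3 FPKM in other genes. At a testis mean of 1 to 2 FPKM the order of the medians was the opposite, with 0.108 FPKM in 82 long genes and 0.0559 FPKM in others. The share with an ovary mean of 1 FPKM or more was close there, 13.4% of long genes (11 of 82) against 15.1%. At a testis mean of 0.5 to 1 FPKM it was 9.52% of 21 long genes against 8.09% of others. Below 0.5 FPKM it was 5.56% of 18 long genes against 3.58%. The spread among testes was close to that of other genes of like level. Among ovaries it was close below a level of 2 and lower between 2 and 5. Between levels of 1 and 2 the median SD of log2(FPKM + 1) was 0.11 among ovaries and 0.2 among testes for long genes, and 0.11 and 0.21 for others. Between 3 and 4 it was 0.35 and 0.2 for long genes and 0.45 and 0.17 for others. Averaged over the 5 bins with at least 20 long genes, the ovary difference was -0.03, and 0.01 after quantile normalization.

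Abundant long genes were few, and with FPKM as deposited most were higher in testis. A mean of 10 FPKM or more in the higher gonad was reached by 176 tested long genes, of which 134 were called for testis (76.1%, against 56.8% of all tested genes at that level) and 18 for ovary (10.2%, against 22.7%). At 50 FPKM or more 18 of 27 were called for testis (66.7%, against 36.8%) and 6 for ovary (22.2%, against 47.7%). At 100 FPKM or more the counts were 11 and 3 of 14 (78.6% and 21.4%, against 32.7% and 55.6%). Among the 11 are both genes of nearly the same span on linkage group 6, given below. A testis mean of 10 FPKM or more was reached by 45.6% of long genes overlapping 5 or more genes. Of those overlapping none it was reached by 16.1%. Values of overlapping genes are uncertain, and the part of overlap in these counts was not tested. The counts depended on the scale. For the 176 genes they were 101 and 33 after quantile normalization (57.4% and 18.8%, against 47.2% and 32.3% of all tested genes at that level). Centring gave 88 and 41 (50% and 23.3%, against 33.8% and 42%), and median ratio scaling over genes above 0 gave 75 and 61 (42.6% and 34.7%, against 31.4% and 53.8%). For the 27 genes at 50 FPKM, quantile normalization again gave 18 and 6, against 43.0% and 43.9% of all tested genes, and median ratio scaling gave 12 and 10, against 21.0% and 71.7%.

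A single long gene held most of the FPKM of long genes in testis. Long genes took 16.7% ± 1.29 of the summed FPKM in testis and 1.06% ± 0.113 in ovary (SD, n = 3 each). Without the gene on linkage group 6 from 8497848 to 8675729 alone, the shares were 2.49% ± 0.0384 and 0.619% ± 0.0562. These shares still include a second long gene of nearly the same span, given below. The gene from 8497848 had 72998, 62064 and 73390 FPKM in testes 1, 2 and 3 and 4570, 2321 and 3024 FPKM in ovaries 1, 2 and 3. Each testis was far above each ovary, with a log2 fold of 4.45 (SE 0.22, limma adjusted p = 1.3e-06), but with median ratio scaling over genes above 0 the fold of 2.27 did not pass (limma adjusted p = 0.069). A second long gene of nearly the same span, from 8497676 to 8675719, stood at 5494, 4969 and 5641 FPKM in the testes and 249, 141 and 163 FPKM in the ovaries. The spans of both overlap those of 11 genes, so how reads were divided between them is uncertain.

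Genes named for a large fold, in either direction, were required to show no overlap between the gonads. The long gene with the largest fold was SCSFRI_TO_T_00053277 on linkage group 22 (5043966 to 5269236). It had 121, 501 and 243 FPKM in testes 1, 2 and 3 and 0.663, 0.668 and 0.58 FPKM in the ovaries. All testes lay far above all ovaries, and testis 2 was the highest, with a log2 fold of 7.23 (SE 0.46, limma adjusted p = 2.6e-06). Its span overlaps that of 1 other long gene, from 5032505 to 5181302, which had 3.37, 2.62 and 3.13 FPKM in testes and 1.69, 1.59 and 1.59 FPKM in ovaries. Next came SCSFRI_TO_T_00033723 on linkage group 18 (8835414 to 8957237), which overlaps no gene. Its testes had 55.7, 170 and 94.4 FPKM and its ovaries 0.267, 0.175 and 0.184 FPKM. The log2 fold was 6.33 (SE 0.38, limma adjusted p = 1.9e-06), and 8.3 with a pseudocount of 0.1, since the ovary values lie under the pseudocount of 1.

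The same order of testes was seen in further genes of large fold. A gene of linkage group 22 at 4542231 to 4698203, overlapping none, had 68.1, 198 and 99.8 FPKM in the testes and 0.592, 0.929 and 0.669 FPKM in the ovaries (log2 fold 6.02, limma adjusted p = 2.3e-06). Another, at 9377073 to 9532786 of linkage group 19, had 33.6, 145 and 50.2 FPKM in testes and 0.267, 0.505 and 0.22 FPKM in ovaries (log2 fold 5.59, limma adjusted p = 1.3e-05). It overlaps 8 genes, and the most abundant of them, from 9475675 to 9494645, went the other way, with a log2 fold of -2.48. Testis 2 was again the highest in both. A fold of at least 5 towards testis was shown by 8 long genes (1.45%, against 1.33% of all tested genes) and towards ovary by 0 (against 0.657%). Of the 8, 6 were highest in testis 2 by at least 0.5 on the log2 scale, a pattern looked at after the values were seen. Among all tested genes of such fold towards testis it held for 129 of 228 (56.6%). Leaving out testis 2 was tried for the 25 tested genes chosen by the naming rule, and among them only that on linkage group 18 from 4597638, described below, lost its call.

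Other genes of large fold did not share that order. On linkage group 5 (11478497 to 11673512) the testes had 163, 108 and 134 FPKM and the ovaries 1.63, 2.35 and 2.26 FPKM, with testis 2 the lowest (log2 fold 5.45, limma adjusted p = 1.3e-06). At 12664983 to 13787070 of linkage group 17, in a span that overlaps 35 genes, the testes had 167, 169 and 208 FPKM and the ovaries 2.42, 4.89 and 3.03 FPKM (log2 fold 5.39, limma adjusted p = 1.3e-06). Both genes were far apart between gonads and close among testes. A gene on linkage group 16 (3095395 to 4379810), among the 5 most abundant in testis, had 347, 154 and 79.6 FPKM in testes 1, 2 and 3 and 9.68, 10.5 and 9.41 FPKM in the ovaries. Here testis 1 was the highest, and the log2 fold was 3.91 (SE 0.47, limma adjusted p = 9.2e-05). Its span overlaps 34 genes, none of them above it in mean level.

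**Figure D4:**
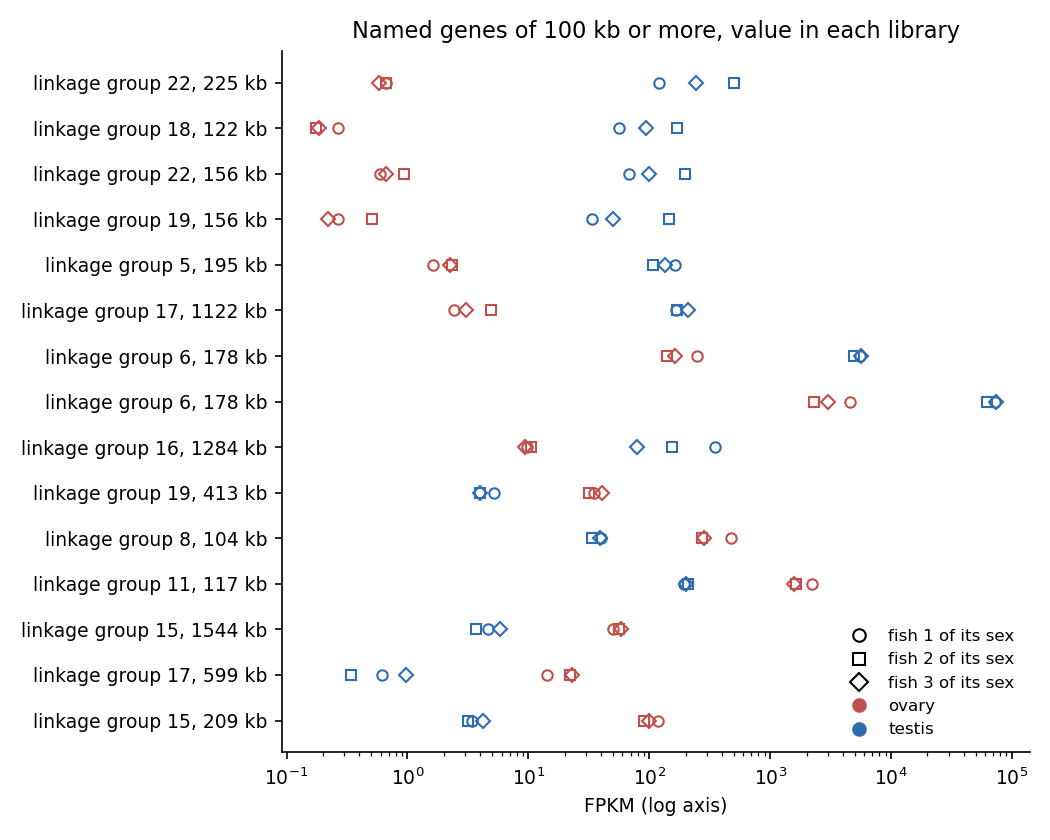
FPKM (log axis) in each of the 6 libraries for 15 long genes with the largest folds in each direction or the highest means, ordered by fold; red, ovaries; blue, testes; the symbol gives the number of the fish within its sex, which pairs no samples. The gonads do not overlap in any of the 15, which the naming rule required of those chosen by fold. In the upper 4 genes the square of testis 2 is the farthest right.

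Long genes higher in ovary were 25, and the largest fold belonged to SCSFRI_TO_T_00048549 on linkage group 15 (1341130 to 1550415). It had 117, 90.2 and 99.2 FPKM in ovaries 1, 2 and 3 and 3.42, 3.17 and 4.21 FPKM in the testes. The ovaries stood apart from the testes and were close to one another, with a log2 fold of -4.48 (SE 0.21, limma adjusted p = 1.3e-06). Its span overlaps 7 genes, none of them above it in mean level. SCSFRI_TO_T_00034776 lies on linkage group 17 (4610233 to 5209712). It had 14.2, 22.3 and 22.8 FPKM in ovaries and 0.615, 0.34 and 0.976 FPKM in testes (log2 fold -3.65, limma adjusted p = 4.2e-06). Its span overlaps 28 genes, of which 3 exceed it in mean level. The most abundant of them, from 5015753 to 5023796, went the same way, with a log2 fold of -4.07. SCSFRI_TO_T_00034776 is 1 of the 2 long genes at 1 FPKM in each ovary and in no testis. The other, on linkage group 7 (18932788 to 19074250), was low in both, with 1.24, 1.87 and 1.75 FPKM in ovaries and 0.475, 0.255 and 0.684 FPKM in testes (log2 fold -0.84, limma adjusted p = 0.0008).

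The most abundant long gene in ovary after the linkage group 6 locus lay on linkage group 11 (27902930 to 28019651). It had 2230, 1647 and 1582 FPKM in the ovaries and 192, 209 and 201 FPKM in the testes, so it was also among the 5 most abundant in testis. The gonads stood apart, with a log2 fold of -3.16 (SE 0.17, limma adjusted p = 1.4e-06). On linkage group 8 (12858181 to 12962188) the ovaries had 475, 272 and 282 FPKM and the testes 39.7, 33.3 and 39.4 FPKM (log2 fold -3.12, limma adjusted p = 8e-06). A short gene that overlaps it had 4243, 2818 and 3078 FPKM in the ovaries and 8.3, 2.43 and 3.45 FPKM in the testes, and its part in the values of the long gene was not tested. On linkage group 15 (19963017 to 21506934) a span of 1544 kb had 49.9, 56.5 and 57.9 FPKM in ovaries and 4.62, 3.72 and 5.85 FPKM in testes (log2 fold -3.3, limma adjusted p = 2.9e-06). That span overlaps 26 genes, of which 4 exceed it in mean level.

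Ovary bias was seen with and without overlap with other genes, and whether overlap bears on it was not tested. Of the 25 genes higher in ovary, 6 overlap no gene. The one with the largest fold lay on linkage group 19 (4513251 to 4926668), with 35.2, 32 and 40.9 FPKM in ovaries and 5.23, 4 and 3.96 FPKM in testes (log2 fold -2.78, limma adjusted p = 5.6e-06). The other 5, chosen for mention after their values were seen, had log2 folds of -0.68 to -1.53 and lay on linkage groups 10, 14 and 22. Among the tested long genes that overlap none, 196 of 230 (85.2%) had the higher level in testis and 6 (2.61%) in ovary, past the threshold. Among those overlapping 1 to 4 genes the counts were 164 (81.6%) and 11 (5.47%) of 201. With 5 or more they were 94 (79%) and 8 (6.72%) of 119. The corresponding shares of other genes were 68.7% and 13.1% without overlap, 66.0% and 14.7% with 1 to 4, and 71.3% and 14.4% with 5 or more.

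The fold did not follow the span within the long genes. The median log2 fold was 1.68 at 100 to 150 kb (269 tested), 1.61 at 150 to 200 kb (117), 1.6 at 200 to 400 kb (113), 1.35 at 400 kb to 1 Mb (26) and 2.03 at 1 Mb or more (25). Genes of 50 to 100 kb, just under the limit, had a median of 1.76, with 82.5% higher in testis and 8.07% higher in ovary. The level did differ between classes, with a median testis mean of 4.21 FPKM at 100 to 150 kb and 14.4 FPKM at 1 Mb or more, and a median ovary mean of 0.397 and 2.24 FPKM. The longest genes also overlap the most genes, so span and overlap cannot be told apart there.

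**Figure D5:**
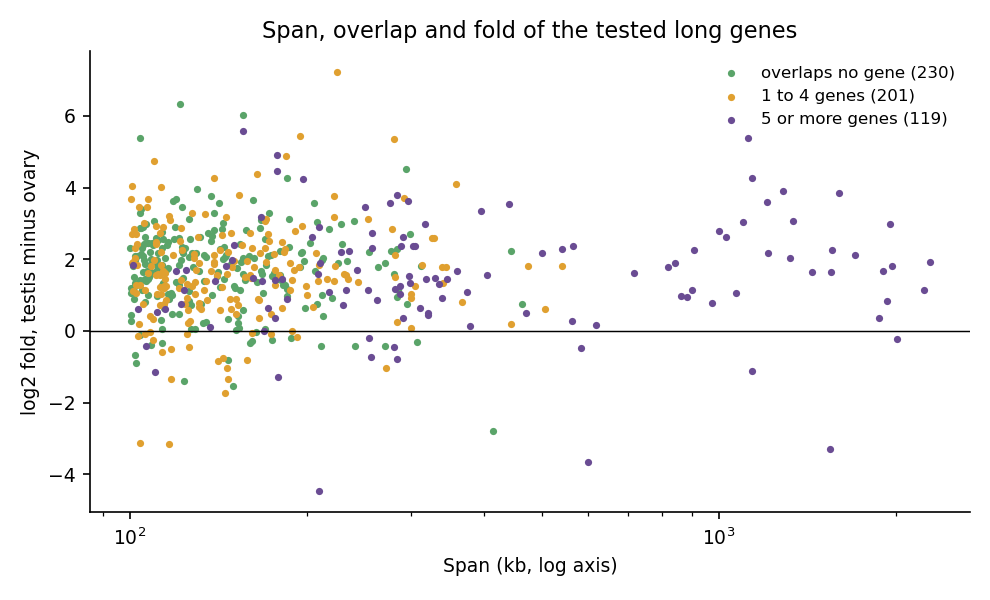
Log2 fold (testis minus ovary) of the 550 tested long genes against span (kb, log axis), coloured by how many other genes the span overlaps (230 with none, 201 with 1 to 4, 119 with 5 or more). Folds scatter around medians of 1.35 to 2.03 in every span class, and all 25 tested genes of 1 Mb or more belong to the class with 5 or more overlaps.

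The 5 longest genes, of 1969 to 2279 kb, each overlap 53 to 90 genes and differed in level and fold. The longest, on linkage group 6 (28339776 to 30618750), overlaps 83 genes and had 4.31, 7.39 and 5.19 FPKM in testes and 0.426, 0.83 and 0.938 FPKM in ovaries. Its log2 fold was 1.92 (limma adjusted p = 6.4e-05), and -0.01 after quantile normalization (limma adjusted p = 0.96). The next, on linkage group 23 (7944168 to 10169540), stood at 3.93, 3.93 and 3.67 FPKM in testes and 1.68, 1.49 and 0.556 FPKM in ovaries. Its direction turned with the scale, from 1.15 (limma adjusted p = 0.0016) to -0.78 after quantile normalization (limma adjusted p = 0.025). The gene on linkage group 13 (4185418 to 6190684) overlaps 90 genes and was abundant in both gonads, at 57.9, 99.5 and 86 FPKM in ovaries and 71.9, 60.6 and 70.2 FPKM in testes. The gonads overlapped and the fold of -0.23 did not pass (limma adjusted p = 0.4), but without ovary 1 it was -0.45 (limma adjusted p = 0.028). The remaining 2 lay on linkage group 6. One (19093805 to 21069910) was nearly silent in the ovaries, with 0.00842 FPKM in ovary 1 and 0 in ovaries 2 and 3. It was low in the testes, at 1.32, 0.579 and 1.4 FPKM, and was not tested. The other (11618928 to 13588045) stood at 34.7, 31 and 28.7 FPKM in testes and 5.82, 11.3 and 8.64 FPKM in ovaries (log2 fold 1.8, limma adjusted p = 0.00026), which turned to -0.24 with median ratio scaling over genes above 0.

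The 3 tested long genes that varied most among ovaries were chosen for that spread. Their SDs of log2(FPKM + 1) among ovaries were 4.52, 1.5 and 1.48. The 90th percentile of that SD was 0.5 for long genes and 0.7 for other genes. On linkage group 13 (17958274 to 18220858) ovary 1 had 237 FPKM while ovaries 2 and 3 had 0.08 and 0 FPKM, and the testes had 11.3, 7.8 and 12.8 FPKM. The fold of 0.85 did not pass (limma adjusted p = 0.69), and without ovary 1 it was 3.46 (limma adjusted p = 8e-06). Without ovary 2 or ovary 3 its sign turned, at -0.43 and -0.49. A gene of nearly the same span inside it (17958283 to 18220829) had 31030, 16580 and 15081 FPKM in the ovaries, also highest in ovary 1, and its part in the value was not tested. On linkage group 5 (24405284 to 24597775) the ovaries had 3.52, 8.78 and 34.4 FPKM around testes at 9.29, 7.84 and 10.9 FPKM, and the fold of -0.18 did not pass (limma adjusted p = 0.81) and was 0.63 without ovary 3. On linkage group 18 (4597638 to 4787906) ovary 1, at 10.9 FPKM, was level with the testes at 10.2, 11.2 and 11.6 FPKM, while ovaries 2 and 3 had 0.94 and 1.12 FPKM. Its fold of 1.71 passed narrowly (limma adjusted p = 0.036). Without ovary 1 the fold was 2.57 (limma adjusted p = 7.6e-06), and it did not pass when any other library was left out (limma adjusted p = 0.08 to 0.11).

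Among testes the widest spread was that of a gene on linkage group 22 (7987740 to 8264233), with 4.31 FPKM in testis 1, 37.7 in testis 2 and 30.4 in testis 3, against 0.184, 0.732 and 0.836 FPKM in ovaries. The gonads did not overlap, with a log2 fold of 3.58 (limma adjusted p = 0.0015), which quantile normalization brought to 2.21, no longer past the threshold (limma adjusted p = 0.059). A gene that overlaps it, from 8230512 to 8264305, was also lowest in testis 1, at 128, 495 and 254 FPKM.

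The most abundant long genes that did not pass, with folds near 0, were that on linkage group 13 from 4185418 and 2 others. On linkage group 5 (26946328 to 27119933) ovaries had 79.1, 89 and 84.2 FPKM and testes 87.4, 69.1 and 83.2 FPKM, overlapping fully, with a fold of -0.08 (SE 0.18, limma adjusted p = 0.7). On linkage group 11 (19093302 to 19304475), in a span that overlaps no gene, ovaries had 23, 34.4 and 40.9 FPKM and testes 29.4, 18.7 and 23.2 FPKM. The fold of -0.43 did not pass (limma adjusted p = 0.18), though it did without ovary 1 (-0.66, limma adjusted p = 0.021). Failing the threshold does not show that these levels are equal, and with median ratio scaling over genes above 0 all 3 were called higher in ovary, while with TPM their folds were 0.13 to 0.5 and did not pass.

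Some long genes near silence in every ovary were at 1 FPKM or more in every testis, a class set by these limits. Testis-restricted genes, under 0.1 FPKM in every ovary but at 1 FPKM in every testis, numbered 83 among long genes (13.7%), against 9.79% of all genes. The opposite pattern was shown by 0 long genes, against 0.00907% of all genes. Their median testis mean was 3.04 FPKM, and 46 of them overlap no gene. Only 4 had a testis mean of 10 FPKM or more, named here after their values were seen. The highest, on linkage group 5 (29826568 to 30120576), stood at 18.9, 33.4 and 21.3 FPKM in testes and 0.072, 0.072 and 0.0919 FPKM in ovaries. The other 3 lay on linkage group 11 (20435691 to 20554345) and linkage group 17 (7948531 to 8055794 and 14605889 to 14828161), with log2 folds of 3.45 to 3.77.

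Long genes also overlapped one another, in 66 pairs that involved 110 of them. Both members were tested in 56 pairs, and in 34 of these both passed in one direction. Of all tested long genes 82.5% were called for testis and 4.55% for ovary, so many pairs would share a direction without overlap. In 7 of the 56 pairs the 2 genes passed in opposite directions. On linkage group 11 the abundant ovary-higher gene described above overlaps a gene (27993172 to 28106100) with a mean of 0.328 FPKM in ovary and 3.81 FPKM in testis, a log2 fold of 1.83 (limma adjusted p = 3.6e-05). On linkage group 7 the ovary-higher gene from 18932788 shares nearly all of its span with a gene (18932793 to 19095565) at 0.276 FPKM in ovary and 3.44 FPKM in testis, with folds of -0.84 and 1.79. Within the 56 pairs the median difference in log2 fold was 1.2, without regard to sign. Shared span thus did not go with a shared fold in every case. Pairs of long genes without overlap were not compared.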

How the data were processed

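Each of the 6 libraries has 1 column of FPKM values, as the authors deposited them. The submitters' processing notes list HISAT2 2.0.4 and StringTie 1.3.3b. Order, settings, genome build, annotation and filters were not given in the sources used here. Columns belonging to no sample numbered 0. FPKM is relative, so abundant transcripts lower all other values of a library. No counts were recovered: low values of 2 ovaries clustered at 1 ratio (63 to 76 genes in a window, against a median of 7 to 10), but those of testes did not (6 to 9 against 2), so depth and counting error are unknown.

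Members were found by span and position. limma 3.58.1 in R 4.3.3 (lmFit, eBayes with trend, two-sided, tissue as the only term) was fitted to log2(FPKM + 1) of all 17206 genes at 1 FPKM in at least 3 libraries, with Benjamini-Hochberg adjustment over all of them; folds understate the change of low genes. The step was tested on simulated data. Alternatives were other scalings (TPM, median ratios, quantiles, centring), pseudocounts, filters and variance models, treat, a replicate block and each library left out. Counts and medians used Python 3.11.15. Named genes are the 6 with the largest fold in each direction, past the threshold and without overlap between gonads, the 5 with the highest mean in each gonad, the 5 longest, the 3 with the largest SD in each gonad, and the 3 most abundant not past the threshold with a fold within 0.5 of 0. Identifiers are given for 2 genes in each direction. The members, rules and bins were chosen with earlier results of these data known. Titles number fish 1 to 3 in both sexes, but the fish differ, so the fit has no block.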

Additional observations from a re-analysis of the deposited data

How the results depend on the processing

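Alternatives changed the counts mainly through the scale. Where no share over all genes was given above, a count in this section describes the long genes alone. It cannot be set against all genes. Higher in testis there were 454 long genes (82.5%), and 402 by a log2 fold of 1. The counts were 288 (52.4%) and 184 with median ratio scaling over genes above 0, 225 (40.9%) and 117 after quantile normalization, 231 (42%) and 128 after centring on the median fold, and 150 and 135 with a mean of at least 5 FPKM, which tests fewer genes. Treat against a log2 fold of 1 left 329 (59.8%) higher in testis. Higher in ovary there were 25 (4.55%), and 16 by a log2 fold of 1. The counts were 14 (2.55%) and 10 with TPM, 150 (27.3%) and 108 with median ratio scaling, 162 (29.5%) and 88 after quantile normalization, 137 (24.9%) and 84 after centring, 46 (8.36%) with median ratios over genes at 1 FPKM, and 7 (1.27%) with treat against a log2 fold of 1. The share was 9.62% with a mean of at least 5 FPKM and 2.61% among genes overlapping none. The median log2 fold of 1.67 was 2.38 with TPM, 1.39 and 0.54 with the narrower and the wider median ratios, 2.9 with a pseudocount of 0.1 and 0.16 after quantile normalization. Long genes at 5 FPKM numbered 87 on average in ovaries and 303 in testes, against 244 and 562 at 1 FPKM, and 316 and 470 at 1 FPKM after median ratio scaling. Testis-restricted long genes numbered 83, and 206 with a limit of 0.5 FPKM in ovary and 21 with median ratio scaling. The matched difference of -0.04 was 0.32 on the testis level and -0.15 on the ovary level. Centring and the narrower median ratios were added after the data were seen. Leaving out 1 library gave 427 to 465 higher in testis (77.6% to 84.5%), 389 to 415 by a log2 fold of 1, 20 to 35 higher in ovary (3.64% to 6.36%), 14 to 16 by a log2 fold of 1, medians of 1.65 to 1.75, 83 to 103 testis-restricted genes and 0 ovary-restricted genes.

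The replicate block gave 447 higher in testis (81.3%) and 22 higher in ovary (4%). With a log2 fold of 1 the counts were 402 and 15. Across genes, the deviations of fish sharing a number correlated at 0.00866, -0.00125 and -0.0586. The fish differ by the study's design, and values from so few fish cannot exclude another link between equal numbers.

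For 25 named genes, 354 of 400 values under alternatives had the sign and the call reported, 13 no longer passed, 14 newly passed and 19, in 9 genes, had the other sign. Among genes past the threshold these were the longest gene (-0.01 after quantile normalization), the second longest (-0.28 after centring, -0.33 with median ratio scaling and -0.78 after quantile normalization), the gene on linkage group 6 from 11618928 (-0.24 with median ratio scaling) and that on linkage group 18 from 4597638 (-0.08 with median ratio scaling). Among genes not past it they were, on linkage group 13, the gene from 17958274 (-0.59 after centring, -0.69 with median ratio scaling, -0.04 after quantile normalization, -0.49 to 3.46 with 1 library left out) and that from 4185418 (0.34 with TPM, 0.05 after quantile normalization), on linkage group 5 that from 24405284 (0.37 with TPM, -0.86 to 0.63 with 1 library left out) and that from 26946328 (0.5 with TPM, 0.26 after quantile normalization, 0.02 without testis 2), and on linkage group 11 that from 19093302 (0.13 with TPM). The cause was not tested. Unknown depth leaves counting error unmeasured below 1 FPKM, where most ovary values of long genes lie.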

Other observations

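Genes lying inside long genes did not share their hosts' folds closely. Among 91 tested long genes with 5 or more tested genes inside, the host's log2 fold and the median of the genes inside had a Pearson's r of 0.08 and a Spearman's rho of 0.113 across hosts, which share the same 6 libraries. Some hosts overlap one another and hold the same genes, so the hosts are not independent. Hosts ranged from -3.65 to 5.59, and the medians inside from -0.53 to 3.36. The longest gene, on linkage group 6, had a fold of 1.92 and a median of 1.16 over 68 genes inside, while the gene on linkage group 8 that spans 1950696 bp had 2.99 against 0.93 over 54 genes inside. Of the 91 hosts, 6 were higher in ovary (6.59%), against 4.55% of tested long genes and 13.4% of all tested genes.

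Long genes made up 1.74% of the genes of linkage group 24 and 3.88% of those of linkage group 19, the lowest and highest shares. With FPKM as deposited their median log2 fold was positive on each linkage group, lowest at 1.2 (linkage group 10) and highest at 2.21 (linkage group 11). The median gap to the nearest gene outside the span was 6650 bp for long genes and 2005 bp for other genes.

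Ovary 1 was the lowest ovary by 0.5 or more on the log2(FPKM + 1) scale in 74 of 550 tested long genes (13.5%), against 28.9% of all tested genes, and ovary 2 the highest by that margin in 35 (6.36%), against 8.85%. These shares were not matched for level. Long genes were lower, with a median mean level of 1.83 on that scale against 2.51 for other genes.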
